A study of Mus musculus with 18 samples.

Results

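The H3K36 demethylase genes are the 7 mouse genes Kdm2a, Kdm2b, Kdm4a, Kdm4b, Kdm4c, Kdm4d and Kdm8, named for enzymes that remove methyl groups from lysine 36 of histone H3. They were taken by symbol from the GENCODE M21 annotation, and all 7 were found among its 21938 protein-coding genes (mitochondrial chromosome left out). Their chromatin was read from ChIP-seq of splenic B cells of Mir155-sufficient (WT) and Mir155-deficient (KO) mice on the C57BL/6 background, purified by depleting CD43, Ter119 and CD4 positive cells. Both genotypes were cultured for 2 days at 1% O2 and 5% CO2 with IL-4 (4 ng/ml), an antibody to CD40 (1 µg/ml) and F(ab')2 fragments against IgM (5 µg/ml), which stimulate B cells through the cytokine, costimulatory and antigen receptors. Chromatin was precipitated with a non-commercial antibody to KDM2A or a commercial one to dimethylated H3 lysine 36 (H3K36me2), and each genotype had 3 libraries per antibody. Replicate 1 was male and the others female in every group. The labels used here give no ages. Input libraries of the same cultures were not analysed here. The labels do not say whether replicates came from separate mice, so the tests measure the spread between these libraries.

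H3K36me2 is laid down by the NSD enzymes and ASH1L over genes and the space between them, and SETD2 extends it to the trimethyl form along transcribed bodies. KDM2A and KDM2B carry a JmjC domain, which removes the mono- and dimethyl forms, and a CXXC zinc finger, which binds unmethylated CpG. Through that finger they gather at CpG islands, the CpG-rich stretches at many gene starts, and KDM2B also brings Polycomb complexes there. KDM4A, KDM4B and KDM4C act on the di- and trimethyl forms of H3K9 and H3K36. KDM4D lacks their reader domains and acts mainly on H3K9. KDM8, also called JMJD5, was first described as an H3K36me2 demethylase and is also a hydroxylase of arginine. KDM2A ChIP therefore shows where one of these enzymes sits at its own gene and at those of its relatives.

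MiR-155 is the microRNA missing from KO cells, and its seed pairs with sites in 3′ UTRs of target mRNAs. Its mature sequence and the one seed match in a 3′ UTR of these genes are shown because they link the deleted gene to 1 of the 7. The first line gives mmu-miR-155-5p, encoded at chr16:84714143-84714165 (+), from RefSeq (GRCm38.p6), with the seed (bases 2 to 8) in capitals. The second gives the Kdm2a match with 8 bases on either side, in transcript sense, with the match in capitals at chr19:4316412-4316419 (GRCm38, − strand).
mmu-miR-155-5p: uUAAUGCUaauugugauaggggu
Kdm2a 3′ UTR: taaatgtaAGCATTAAgggaatga

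The motif searched was AGCATTA, the complement of the seed, on the transcript strand only, in the 3′ UTRs of protein-coding transcripts of GENCODE M21. It was found in 1 of the 7 genes, Kdm2a, where a following A made the match 8 bases long. It began at base 2681 of the 3′ UTR and was present in the transcripts Kdm2a-201 and Kdm2a-202. Of 21853 genes with an annotated coding transcript, 8.48% held the 7-base motif and 3.07% the 8-base one. Kdm2b, Kdm4a, Kdm4b, Kdm4c, Kdm4d and Kdm8 had neither motif in these windows. A match is a description of letters, and ChIP-seq of chromatin does not measure the mRNA.

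The promoters below are shown because CpG content differs widely among them and KDM2A peaks did too. Each is 300 bases, from 250 before to 50 after a RefSeq start (GRCm38.p6), written 5′ to 3′ on the gene's strand, with each CG in capitals. CG reads the same on both strands. In order they are Kdm4c upstream, chr4:74242247-74242546 (+); Kdm4c internal, chr4:74251629-74251928 (+); Kdm2b upstream, chr5:122989050-122989349 (−); Kdm2b internal, chr5:122900301-122900600 (−); Kdm8, chr7:125444370-125444669 (+); and Kdm4a, chr4:118179994-118180293 (−).
Kdm4c upstream: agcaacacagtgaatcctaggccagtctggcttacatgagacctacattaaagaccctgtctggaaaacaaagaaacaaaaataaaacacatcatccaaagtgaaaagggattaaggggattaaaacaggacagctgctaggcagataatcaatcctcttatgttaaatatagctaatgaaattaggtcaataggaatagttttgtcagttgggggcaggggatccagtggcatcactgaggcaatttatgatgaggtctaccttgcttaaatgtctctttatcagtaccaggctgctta
Kdm4c internal: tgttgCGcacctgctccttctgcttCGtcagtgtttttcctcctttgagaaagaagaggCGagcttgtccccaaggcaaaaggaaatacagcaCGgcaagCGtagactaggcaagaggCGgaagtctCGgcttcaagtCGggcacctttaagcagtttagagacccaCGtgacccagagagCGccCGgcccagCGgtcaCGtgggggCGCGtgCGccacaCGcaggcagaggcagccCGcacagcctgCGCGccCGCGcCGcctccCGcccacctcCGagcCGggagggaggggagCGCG
Kdm2b upstream: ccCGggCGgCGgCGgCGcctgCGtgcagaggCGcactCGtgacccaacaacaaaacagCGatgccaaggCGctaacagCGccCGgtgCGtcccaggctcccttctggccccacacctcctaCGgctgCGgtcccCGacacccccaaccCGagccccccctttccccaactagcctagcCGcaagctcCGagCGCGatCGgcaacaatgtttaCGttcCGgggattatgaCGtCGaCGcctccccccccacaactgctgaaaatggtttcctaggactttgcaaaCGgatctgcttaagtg
Kdm2b internal: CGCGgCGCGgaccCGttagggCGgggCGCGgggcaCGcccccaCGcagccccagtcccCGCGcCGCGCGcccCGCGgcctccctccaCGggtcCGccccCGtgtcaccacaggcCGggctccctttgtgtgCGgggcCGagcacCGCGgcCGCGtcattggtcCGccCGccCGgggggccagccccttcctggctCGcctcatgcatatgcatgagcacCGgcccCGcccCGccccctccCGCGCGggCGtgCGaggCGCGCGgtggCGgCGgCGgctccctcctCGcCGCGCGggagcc
Kdm8: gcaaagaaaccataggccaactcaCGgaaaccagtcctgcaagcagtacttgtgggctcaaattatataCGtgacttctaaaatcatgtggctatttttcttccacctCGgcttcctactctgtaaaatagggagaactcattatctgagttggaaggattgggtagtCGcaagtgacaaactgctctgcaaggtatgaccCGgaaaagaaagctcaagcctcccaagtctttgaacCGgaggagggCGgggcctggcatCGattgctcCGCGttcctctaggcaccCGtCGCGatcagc
Kdm4a: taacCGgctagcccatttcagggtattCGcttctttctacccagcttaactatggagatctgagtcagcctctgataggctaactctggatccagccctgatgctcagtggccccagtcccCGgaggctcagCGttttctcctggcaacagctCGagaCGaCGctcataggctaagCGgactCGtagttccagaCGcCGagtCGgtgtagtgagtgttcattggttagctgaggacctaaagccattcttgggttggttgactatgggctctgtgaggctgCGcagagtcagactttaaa

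The Kdm4c upstream promoter held 0 CG and the internal one 28, a number that 14.2% of 32851 promoters of this length reached or exceeded. The Kdm2b promoters shown held 28 upstream and 49 internally, and 1.02% of promoters held 49 or more. RefSeq gives Kdm2b another start near each, and those promoters held 18 CG upstream, which 29.7% reached, and 47 internally. Kdm8 and Kdm4a held 13 each, which 37.9% reached. Kdm4d, chr9:14500433-14500732 (−), held 17. Kdm2a and Kdm4b had no promoter printed.

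The lists of KDM2A peaks held 15387 to 29105 peaks, and those of H3K36me2 37447 to 106720. KDM2A peaks covered 0.77 to 1.11% of the genome in WT and 0.433 to 0.715% in KO. H3K36me2 peaks covered 4.17, 5.32 and 5.25% in WT and 3.63, 1.59 and 1.44% in KO replicates 1, 2 and 3, so KO replicate 1 stood nearer to WT than to the other KO libraries. Coverage at a gene follows this extent in part, read depth is unknown, and the part of either in the differences below was not tested. A KDM2A peak within 2 kb of a TSS was called in all 6 libraries at 0 of 6 T cell, 0 of 4 myeloid and 1 of 3 erythroid marker genes, against 26.4% of all protein-coding genes and 3.01% of those without a CpG island, which all the T cell and myeloid genes lack. Peaks are not expression, so this does not measure the cells' purity.

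KDM2A was found at a TSS of every one of the 7 genes in at least 1 library of each genotype, and in all 6 libraries at Kdm2a, Kdm2b, Kdm4b and Kdm4c. Such peaks were common, and 39.2% of all genes and 15.4% of those with an island had none in any library. Of all 21938 protein-coding genes, 26.4% had a KDM2A peak within 2 kb of a TSS in all 6 libraries, and 41.96% of the 13160 genes with a CpG island in those windows did. An island was present at 6 of the 7, and absent at Kdm4a. Fold is the deposited ratio of a peak over its local background. By mean fold the 4 genes stood at the 63.3 (Kdm2a), 91.0 (Kdm2b), 91.7 (Kdm4b) and 72.8 (Kdm4c) percentile of 13330 genes with any TSS peak. The fold is the highest over all windows of a gene, which span 39512 bp at Kdm2b and 4083 bp at Kdm4d. More windows can raise it and the number of libraries with a peak, and neither was adjusted for this. With only the stronger peaks (−log10 q of at least 2), 2 of the 7 genes, Kdm2b and Kdm4b, kept a TSS peak in all 6 libraries, as did 2397 of all 21938.

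**Figure D1:**
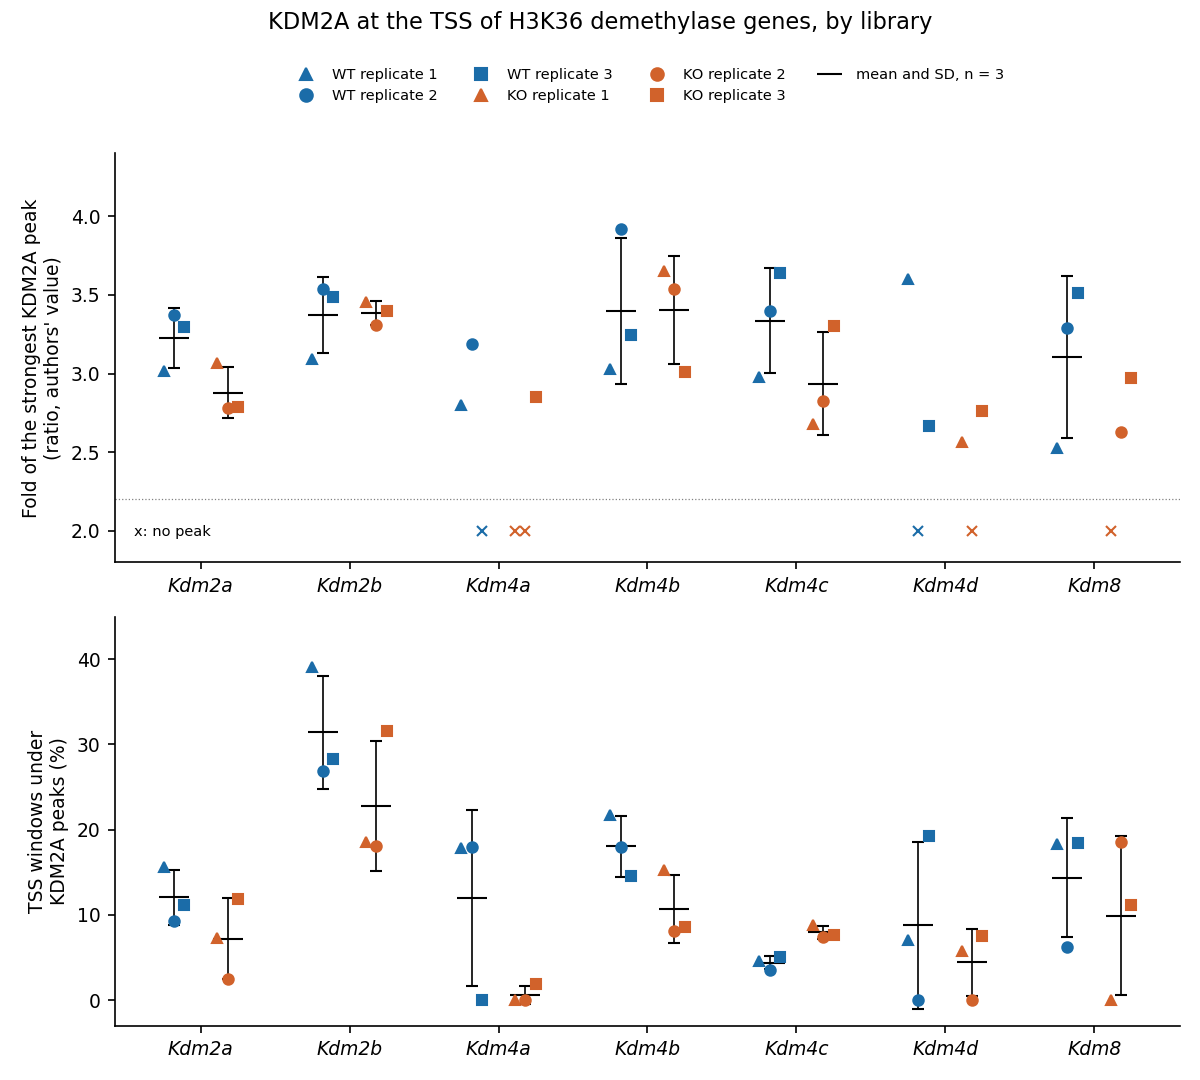
KDM2A at the 7 genes in each library. The upper panel gives the fold of the strongest peak within 2 kb of any TSS (ratio, axis from 1.8), with a cross where no peak was called, and the lower panel the percent of the TSS windows under KDM2A peaks; black bars are means ± SD over 3 libraries. A peak was called in all 6 libraries at 4 genes, and at Kdm4c the 3 KO values of coverage (7.42 to 8.83%) lay above the 3 WT values (3.58 to 5.01%).

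Kdm2a (ENSMUSG00000054611.17, chr19:4314419-4398285, − strand) had 14 transcripts whose starts fell into 4 groups. At the upstream starts, which lie at a CpG island, a KDM2A peak was called in every library, with folds of 3.01, 3.08 and 3.29 in WT and 3.06, 2.78 and 2.79 in KO replicates 1 to 3. The peak was 1047, 1577 and 1488 bp wide in WT and 1327, 584 and 1776 bp in KO. A second site lay 64284 bp downstream at the start of Kdm2a-212, in intron 12 of Kdm2a-201, with no island in its window. It was called at folds of 2.45, 3.37 and 2.86 in WT and at 2.91 and 2.54 in KO replicates 1 and 3, and was not called in KO replicate 2. No peak lay at the start of Kdm2a-206, 35398 bp downstream, in any library. The fourth group, from Kdm2a-214 at 69874 bp, had no island and a KDM2A peak in WT replicate 1 only, at a fold of 2.44. So the gene for the precipitated protein carried that protein in both genotypes at its island and at the island-free start of Kdm2a-212.

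Kdm2b (ENSMUSG00000029475.17, chr5:122870665-122989823, − strand), the CXXC paralogue of Kdm2a, was the most extensively covered of the 7. Its 20 transcripts started in 6 groups over 119159 bp, and 3 of these groups had a KDM2A peak in all 6 libraries. In the upstream group, KDM2A peaks covered 78.6, 69.8 and 49.6% of the window in WT and 48.9, 44.9 and 78.4% in KO. Single peaks spanned this region in WT replicate 1 (8108 bp), WT replicate 2 (6178 bp) and KO replicate 3 (6151 bp). The start of A930024E05Rik falls in the same window, so peaks there cannot be given to one gene. The second group, 36706 bp into the gene in intron 6 of Kdm2b-202, was covered over 56.5, 41.1 and 33.8% in WT and 23.8, 19.7 and 44.8% in KO. A further site, at the start of Kdm2b-201 in intron 12, had the promoter with 49 CG shown above. KDM2A peaks took up 32.9, 17.5 and 44.5% of its window in WT and 20.9, 34.8 and 36.02% in KO. WT and KO ranges of coverage overlapped at all 3 sites. Folds in the upstream group were 3.09, 3.37 and 3.40 in WT and 3.01, 2.75 and 2.61 in KO, without overlap. How often single starts of other genes did so was not measured. Folds overlapped in the second group and at the start of Kdm2b-201. At the latter they were 2.61, 2.98 and 2.76 in WT and 2.88, 3.31 and 3.19 in KO. The groups of Kdm2b-208 and Kdm2b-209 had a KDM2A peak in WT replicates 1 and 3 and in no KO library.

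Kdm4c (ENSMUSG00000028397.13, chr4:74242497-74405860, + strand) showed the clearest choice between starts. None of the 6 libraries held a KDM2A peak within 2 kb of its upstream start, whose promoter holds 0 CG. All 6 held one within 2 kb of the start of Kdm4c-201, 9439 bp downstream in intron 1 of Kdm4c-202. The promoter shown there holds 28 CG and overlaps an island, and the peak touched its 300 bases in 2 WT and 3 KO libraries. The folds there were 2.97, 3.40 and 3.64 in WT and 2.68, 2.83 and 3.30 in KO. The start of A230083N12Rik also lies in this window. The peak was 551, 430 and 602 bp wide in WT and 1060, 891 and 915 bp in KO, so every KO peak was wider than every WT peak. It was the only KDM2A peak over 163364 bp of gene in each of the 6 libraries. At Kdm4c, KDM2A was thus called at the CpG-rich start and not at the CpG-free one.

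**Figure D2:**
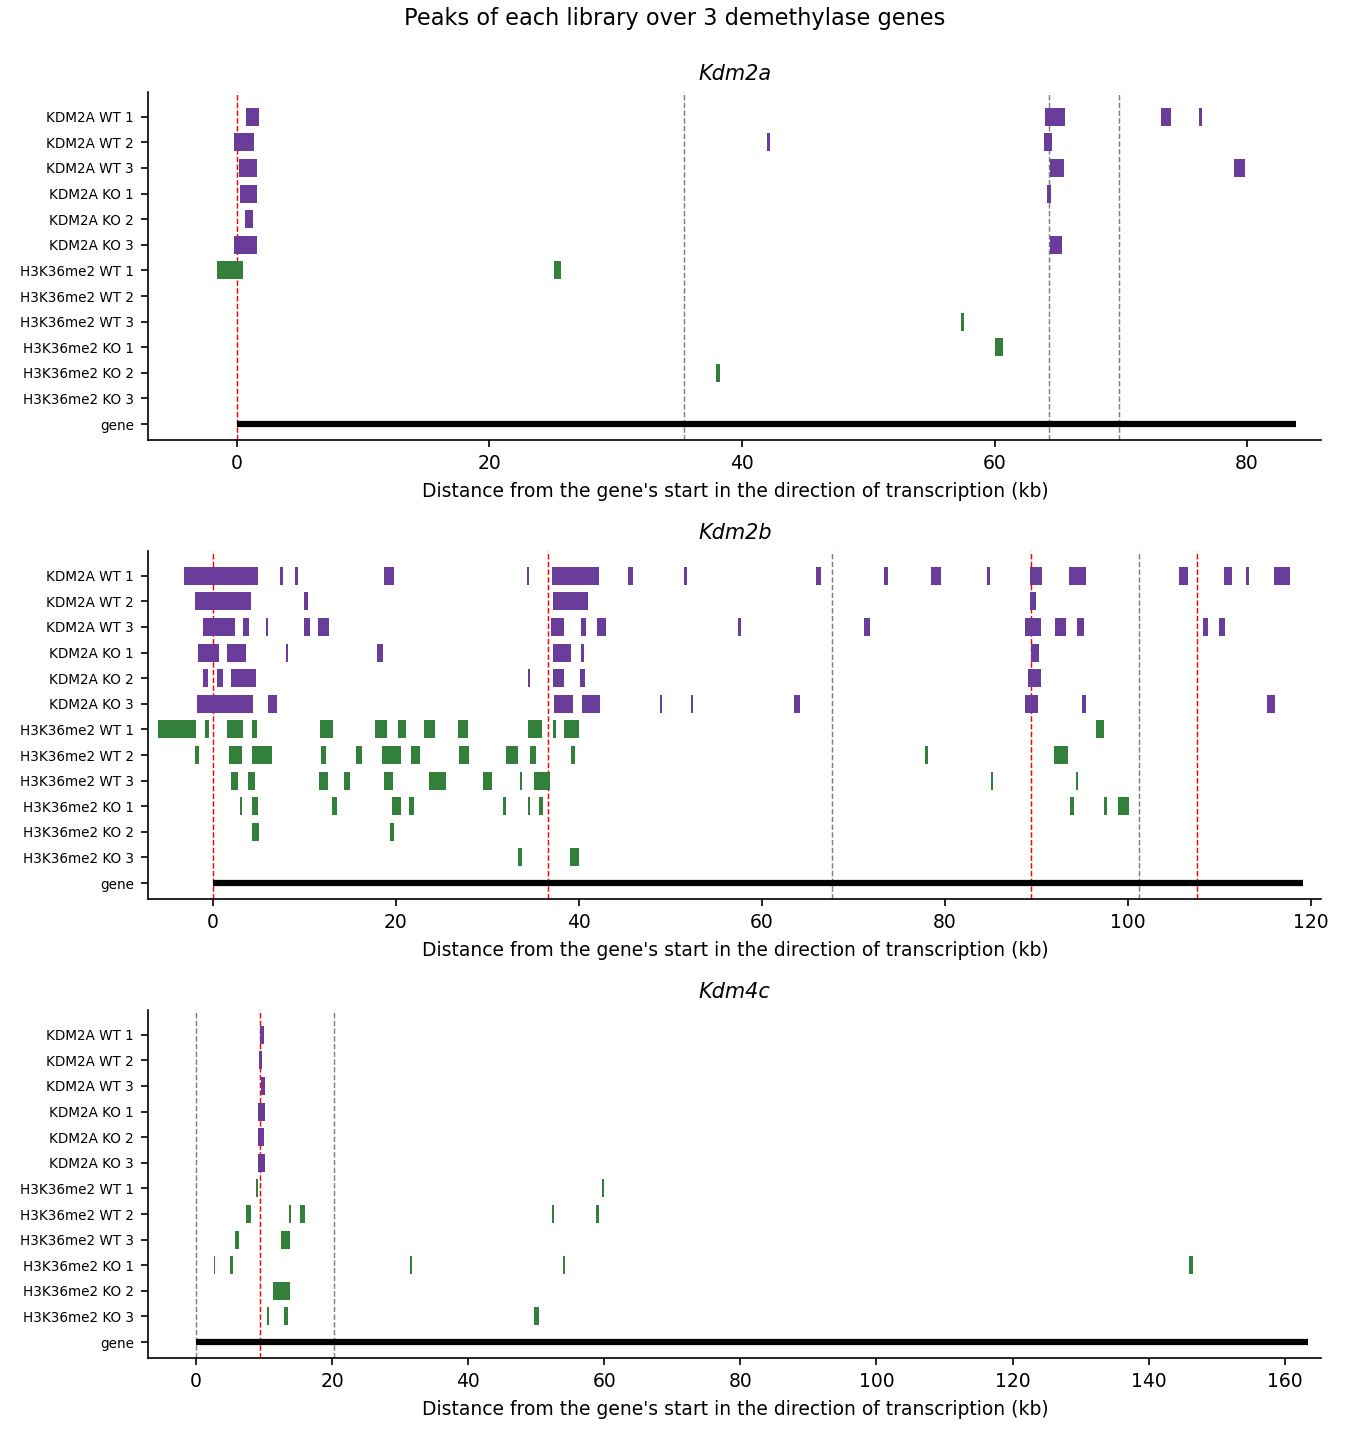
Peaks of the 6 KDM2A libraries (purple) and 6 H3K36me2 libraries (green) over Kdm2a, Kdm2b and Kdm4c, drawn to scale against distance from the gene's start in kb. Dashed lines mark the first start of each group of TSS, red where its window holds a CpG island and grey where it does not. KDM2A peaks of all 6 libraries align at the first start of Kdm2a, at 3 starts of Kdm2b and at the second start of Kdm4c, and H3K36me2 peaks of Kdm2b lie mostly in its first 40 kb.

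Kdm4b (ENSMUSG00000024201.12, chr17:56326062-56402870, + strand) had a KDM2A peak at its island start in every library, with folds of 3.03, 3.92 and 3.24 in WT and 3.65, 3.54 and 3.01 in KO. The window at this start was covered over 66.9, 44.7 and 22.2% in WT and 24.1, 19.4 and 16.1% in KO, so 1 KO library lay above the lowest WT library. Kdm4b also held KDM2A peaks along its body, 8, 6 and 17 in WT and 6, 9 and 6 in KO. They covered 11.4 ± 5.1% of the body in WT and 7.13 ± 2.29% in KO (SD, n = 3). Kdm2b and Kdm4b were the genes with the broadest KDM2A in their bodies, at the 87.3 and 86.4 percentile of all protein-coding genes.

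The other 3 genes had KDM2A in some libraries only. Kdm4a (ENSMUSG00000033326.15, chr4:118136957-118180043, − strand), the gene without an island, had a peak at its upstream starts in WT replicates 1 and 2, covering 44.9 and 50.8% of that window, and in KO replicate 3, covering 5.24%. WT replicate 3 and KO replicates 1 and 2 had none there. Kdm4d (ENSMUSG00000053914.9, chr9:14462548-14500482, − strand) had a peak in replicates 1 and 3 of both genotypes, at folds of 3.60 and 2.67 in WT and 2.56 and 2.76 in KO. Its window also holds the start of Cwc15, a splicing factor gene. Kdm8 (ENSMUSG00000030752.8, chr7:125444676-125462269, + strand) had a peak in all 3 WT libraries, at 2.53, 3.29 and 3.51, and in KO replicates 2 and 3, at 2.63 and 2.97. The centres of these 5 Kdm8 peaks lay 254 to 474 bp downstream of the start.

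The question put to KDM2A was whether its fold or its extent at these TSS differed between genotypes. No gene passed an adjusted p of 0.05 (limma with Benjamini-Hochberg adjustment) in either comparison. For fold, 5786 genes with a peak in all 6 libraries were tested, 0% were called and 299 had an unadjusted p under 0.05. Among these genes, 5.17% had every KO library below every WT library and 5.2% every KO library above. Of the 7 genes, 4 could be tested, and none was among either. The KO minus WT difference in centred log2 fold was −0.10 ± 0.10 (SE) at Kdm2a, with a 95% interval of −0.32 to 0.11, and −0.12 ± 0.12 at Kdm4c. It was 0.07 ± 0.12 at Kdm2b and 0.07 ± 0.13 at Kdm4b. The fold tested was the highest over all starts of a gene. At Kdm2b it came from the upstream group in WT replicate 1 and from the start of Kdm2b-201 in KO replicate 2. In the other libraries it came from the second group, so this value mixes starts. The smallest adjusted p of the 4 was 0.949. These intervals leave room for changes in either direction.

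For coverage of the TSS windows, 12288 genes with a mean of at least 1% were tested, 0% were called and 942 had an unadjusted p under 0.05. All 7 genes passed this filter, and 6 of them had the lower mean in KO, as did 74.7% of genes tested, whose median was −2.87 percentage points. Kdm4a had a mean of 0.619% in KO and passed through its WT mean of 11.96%, so it could only come out lower. Every KO library lay below every WT library at 12.5% of genes tested and at 0 of the 7. Every KO library lay above every WT library at 1.19% of genes tested and at 1 of the 7, Kdm4c. There the windows were covered over 4.59, 3.58 and 5.01% in WT and 8.83, 7.42 and 7.62% in KO, and the groups did not overlap. The difference was 3.56 ± 2.37 percentage points (SE; adjusted p = 0.688, limma), and it was −1.85 when only the stronger peaks were used and 7.12 with 1 kb windows. The lowest difference was at Kdm4a, which passed the filter through WT. There peaks took up 17.9, 18.0 and 0% of the windows in WT and 0, 0 and 1.86% in KO. The difference of −11.34 ± 4.96 percentage points fell short of the threshold (adjusted p = 0.64, limma), and the groups overlapped because WT replicate 3 had no peak. Under other settings the value in percentage points was −6.04 with equal numbers of peaks per list, −17.62 with 1 kb windows and −30.16 with the starts of protein-coding transcripts only.

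Between these lay Kdm2a, with 15.6, 9.33 and 11.2% in WT and 7.23, 2.50 and 11.9% in KO. Its difference was −4.83 ± 3.87 percentage points, or −1.13 with equal numbers of peaks per list and −7.45 with 1 kb windows, and KO replicate 3 lay above 2 of the WT libraries. Kdm2b differed by −8.66 ± 7.65 and Kdm4b by −7.39 ± 4.54 percentage points. With only the stronger peaks Kdm2b differed by −16.78, and with 1 kb windows Kdm4b differed by −12.40. When coverage was divided by the genome share of its own list, the differences at Kdm2b, Kdm4b and Kdm8 turned positive, and 40.4% of all genes were lower in KO in place of 74.7%.

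H3K36me2 covered a median of 1.94% of the 7 gene bodies in WT and 1.59% in KO, against 0.526% and 0% over all protein-coding genes and 1.94% and 0.378% over those with an island. Of all 21938 genes 9177 had none in any library. Kdm4a had no H3K36me2 peak in its body in any of the 6 libraries. Kdm2a came next, with 1.23, 0 and 0.296% in WT and 0.810, 0.323 and 0% in KO. They came from 2 peaks in WT replicate 1, 1 of them across the upstream start, and from 1 peak in each of the other 3 libraries, 248 to 679 bp wide and at different places. Kdm2a was thus a gene with KDM2A at its start in every library and with almost no H3K36me2 in its body in either genotype.

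Kdm2b had the highest mean of the 7 in WT, and in KO its mean lay below those of Kdm8 and Kdm4d. H3K36me2 covered 10.5, 11.0 and 8.02% of its body in WT and 4.88, 0.969 and 1.24% in KO, and every KO library lay below every WT library. The covered bases lay towards the 5′ end, with 92.6, 85.9 and 94.6% of them in the gene's 5′ portion up to its midpoint in WT and 66.2, 100 and 100% in KO. Over genes of at least 50 kb with any H3K36me2 in the library, 2460 to 3432 genes per library, the median of that share was 64.0 to 77.6%. KDM2A and H3K36me2 peaks of same-numbered lists shared 4608, 1869 and 1497 bp of the Kdm2b body in WT and 175, 497 and 336 bp in KO. Kdm4b had a WT mean just below that of Kdm8. Its body was covered over 6.57, 6.33 and 6.68% in WT and 4.77, 0 and 0% in KO, again without overlap. Every KO library lay below every WT library at 28.7% of the 9804 genes tested.

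At Kdm8, H3K36me2 covered 5.76, 8.90 and 6.04% of the body in WT and 5.67, 0 and 3.64% in KO, so that KO replicate 1 nearly reached the lowest WT library. Kdm4c and Kdm4d did not share this order. Kdm4c had 0.391, 1.42 and 1.16% in WT and 1.06, 1.56 and 1.02% in KO. Kdm4d had 1.08, 1.14 and 3.60% in WT and 1.12, 1.03 and 6.91% in KO, where KO replicate 3 was the highest library.

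**Figure D3:**
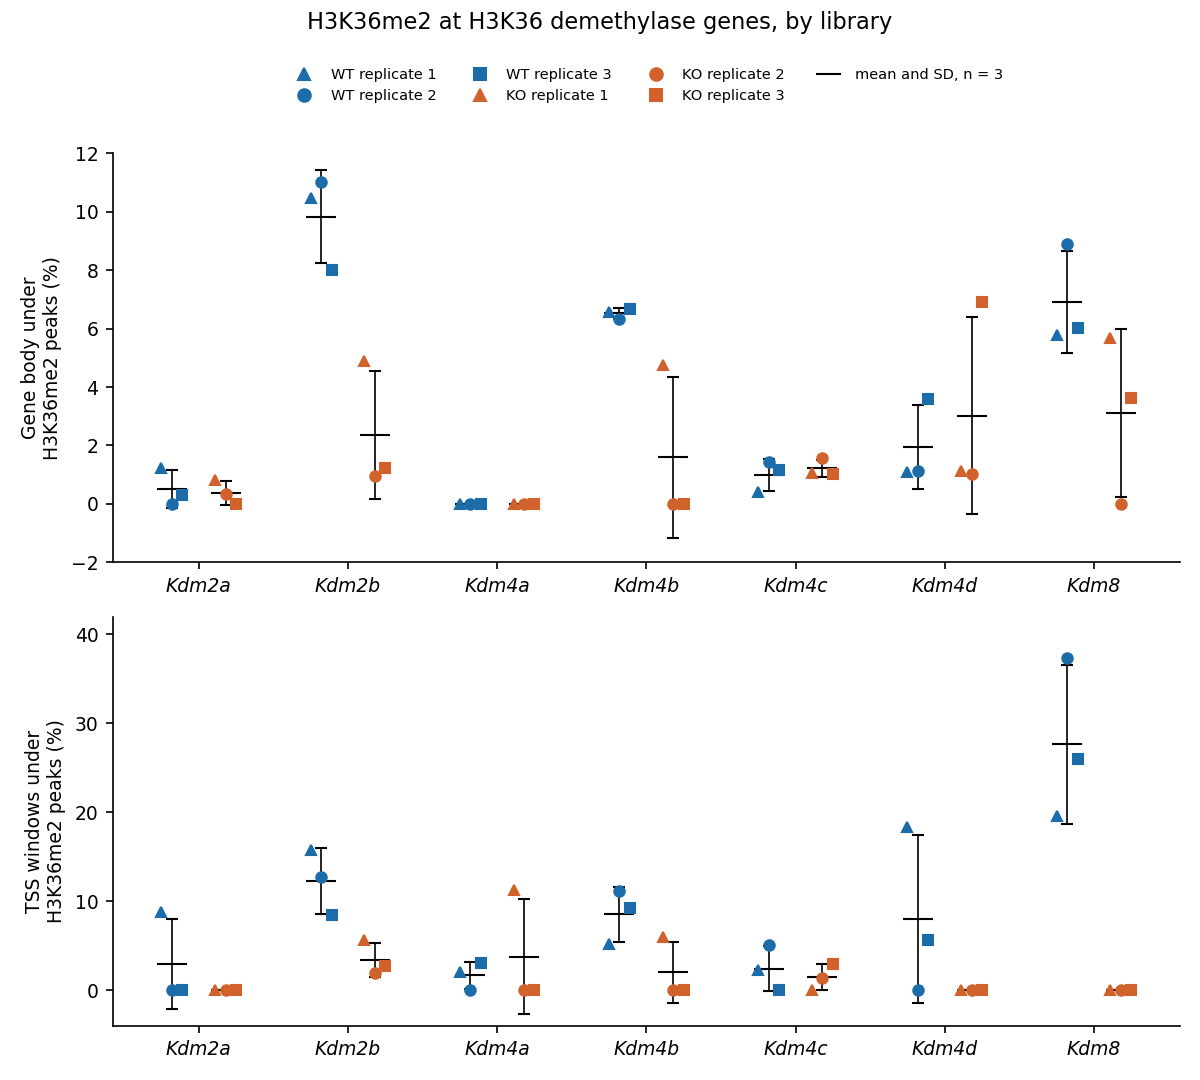
H3K36me2 at the 7 genes in each library, as the percent of the gene body (upper panel) and of the TSS windows (lower panel) under peaks, with means ± SD over 3 libraries in black. KO values of Kdm2b, Kdm4b and Kdm8 lie below the WT values in the body, with KO replicate 1 the nearest to WT, and Kdm8 has no H3K36me2 in its TSS window in any KO library.

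The second question was whether H3K36me2 over these genes differed between genotypes. In gene bodies, 9804 genes were tested, 0% were called by limma and 1899 had an unadjusted p under 0.05. The filter of a mean of at least 1% left 5 of the 7 genes and dropped Kdm2a and Kdm4a. Kdm2b differed by −7.46 ± 2.93 percentage points (SE; 95% interval −14.22 to −0.70; adjusted p = 0.253, limma), Kdm4b by −4.94 ± 2.35 and Kdm8 by −3.80 ± 2.75. With equal numbers of peaks per list the differences were −3.32 at Kdm2b, −1.92 at Kdm4b and 0.26 at Kdm8, and outside the TSS windows Kdm8 differed by −1.09. Kdm4c differed by 0.22 ± 1.08 and Kdm4d by 1.08 ± 2.10 percentage points. The median over all genes tested was −5.24. Every KO library lay below every WT library at 28.7% of genes tested and above at 0.0918%. The 3 genes that did so here, all lower, are to be read against that share and against the smaller extent of the KO lists.

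In the TSS windows, 11424 genes were tested, 0% were called and 1579 had an unadjusted p under 0.05. All 7 genes passed the filter, and 6 had the lower mean in KO, as did 87.1% of genes tested, whose median was −6.48 percentage points. Kdm2a, Kdm4d and Kdm8 had no such coverage in KO and passed the filter through WT alone, so these 3 could only come out lower. Every KO library lay below every WT library at 21.3% of genes tested and at 2 of the 7, Kdm2b and Kdm8, and above at 0.254% and at 0 of the 7. Kdm8 had the lowest difference of the 7. Its window was covered over 19.6, 37.3 and 26.0% in WT and had no H3K36me2 peak in any KO library, a difference of −27.63 ± 8.26 percentage points (95% interval −45.11 to −10.15). The unadjusted p from limma was 0.00401, and 1.23% of genes tested had a p as small, while the adjusted p was 0.29. With equal numbers of peaks per list, or with only the stronger peaks, its mean coverage fell below the 1% filter and no difference was fitted. The WT peaks lay on different sides of the start, with centres at −744 bp in replicate 1, 1296 bp in replicate 2 and −918 bp in replicate 3.

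At Kdm2b the TSS windows were covered over 15.7, 12.7 and 8.39% in WT and 5.60, 1.96 and 2.65% in KO, without overlap, a difference of −8.88 ± 6.10 percentage points, or −2.12 with equal numbers of peaks per list. Kdm4b had 5.14, 11.1 and 9.27% in WT and 6.0, 0 and 0% in KO. Kdm4d had 18.4, 0 and 5.66% in WT and 0 in all KO libraries. Kdm2a had 8.75% in WT replicate 1, from 1 peak of 2040 bp across its upstream start, and 0 in the other 5 libraries. Kdm4c had 2.21, 5.02 and 0% in WT and 0, 1.40 and 2.94% in KO. Kdm4a was the exception in direction, with 2.01, 0 and 3.01% in WT and 11.2, 0 and 0% in KO, and its higher mean rested on KO replicate 1, without which the difference was −1.67 percentage points in place of 2.07.

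**Figure D4:**
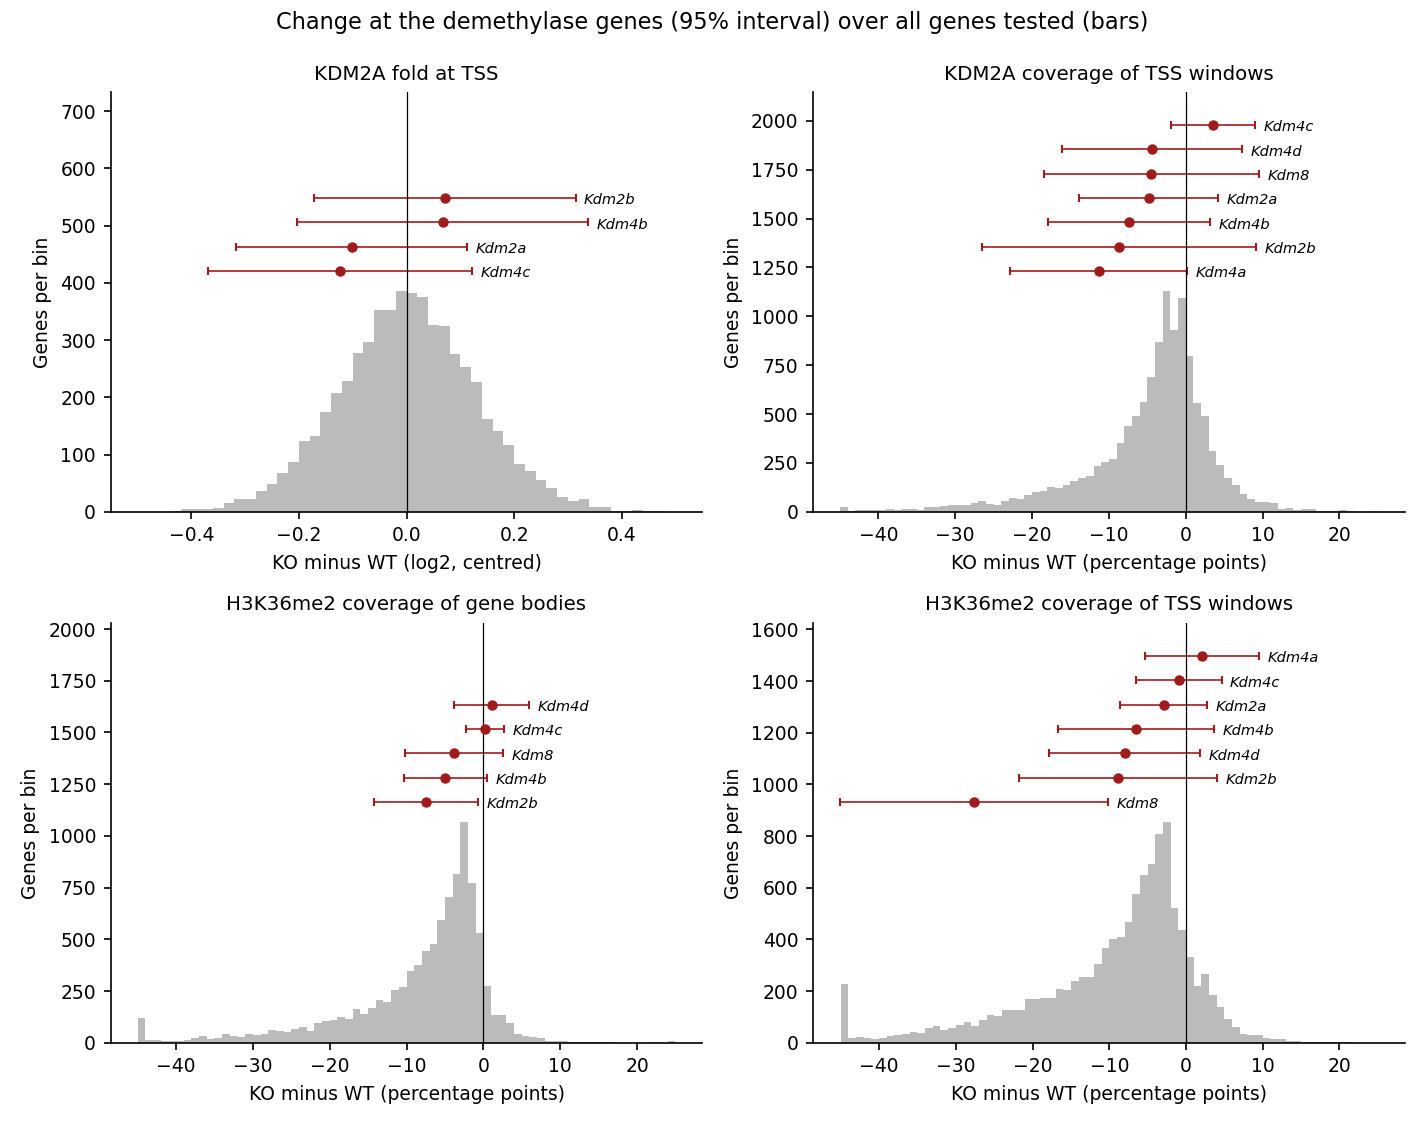
KO minus WT differences of the 7 genes (red points with 95% intervals from limma) above the number of genes per bin of the same difference over all genes tested (grey), for KDM2A fold (log2) and for coverage (percentage points; differences beyond −45 or 25 are counted in the end bins). The grey distribution of coverage is shifted below 0, most for H3K36me2, and only Kdm2b in gene bodies and Kdm8 in TSS windows have intervals that leave out 0.

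The genes of the opposing enzymes were measured in the same way. All 8 H3K36 methyltransferase genes (Nsd1, Nsd2, Nsd3, Ash1l, Setd2, Smyd2, Setmar and Prdm9) had a KDM2A peak at a TSS in at least 1 library, and 5 had it in all 6, against 26.4% of all genes and 41.96% of those with an island, which 7 of the 8 have. Their H3K36me2 body coverage had a median of 3.74% in WT and 1.00% in KO. All 7 of them tested were lower in KO, as were 91.4% of all genes tested, and they ranged from −4.69 percentage points at Smyd2 to −1.46 at Nsd3, with a median of −2.04, and 0 were called. Nsd3 (0.938%), Ash1l (0.839%) and Setd2 (0.471%) had KO means under the 1% filter. They passed through WT and could only come out lower. Of 17 other lysine demethylase genes, 10 had a KDM2A peak in all 6 libraries and 5 had no H3K36me2 in the body in any library, against 3699 of the 13160 genes with an island, which 15 of the 17 have. The list includes the Y-linked Kdm5d and Uty, which have no copy in the female libraries and had no peak of either kind at the sites measured. The 9 tested were also all lower in KO, against the same share of all genes, with a median of −4.24 and the lowest value at Jmjd1c, a gene of an H3K9 demethylase, where coverage was 26.9% in WT and 11.97% in KO (adjusted p = 0.254, limma). Kdm1b had 2.12% in WT and 0% in KO, so it passed the filter through WT and could only come out lower. Phf8, with 0% in WT and 0.203% in KO, did not pass the filter. The median over the 5 tested H3K36 demethylase genes was −3.80, so each list lay above the median of all genes tested. For KDM2A coverage of the TSS windows the medians were −4.83 in the H3K36 demethylase genes, −0.40 in the methyltransferase genes and −1.64 in the other demethylase genes. Over all genes tested the median was −2.87. When coverage was divided by the genome share of its own list, the H3K36 demethylase median became 0.76 and that of all genes 1.82 (ratio units). The lowest single unscaled value of these lists was at Kdm6b, a gene of an H3K27 demethylase, at −32.97 percentage points (adjusted p = 0.64, limma).

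The protein-coding genes with the pattern most like Kdm2a were Smarcd1, Emc1 and Acly. Likeness was the mean absolute difference in coverage over 12 libraries (KDM2A in the TSS windows of 6, H3K36me2 in the body of 6), and it was 0.906, 0.970 and 1.07 percentage points. Smarcd1 encodes a subunit of the SWI/SNF chromatin remodeller, Emc1 a subunit of the membrane protein insertion complex of the endoplasmic reticulum, and Acly the enzyme that makes cytosolic acetyl-CoA from citrate. KDM2A coverage of the windows at Smarcd1 measured 15.4, 8.91 and 7.95% in WT and 6.49, 3.95 and 12.2% in KO, and was farthest from Kdm2a in WT replicate 3 (7.95 against 11.2%). H3K36me2 was absent from the body of Emc1 in all 6 libraries and called in 1 WT library at Smarcd1.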

How the data were processed

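Splenic B cells of 2 genotypes were profiled by ChIP-seq with 3 libraries per genotype and antibody. The authors ran nf-core/chipseq, with BWA alignment to GRCm38 and MACS2 broad peak calling, and deposited one list per library. Which control each list was called against is not given in the sources used here. The versions of BWA and MACS2 and the read filters are not given in the sources used here. The deposited fold is a ratio over local background, not normalized between lists. The deposited lists also give each peak's p-value and q-value as −log10, and the q-value was used for the stronger-peak alternative. The deposited score was not used. Files hold no read counts, so depth is unknown.

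For each gene of GENCODE M21 the strongest fold within 2 kb of any TSS, and the percent of the merged TSS windows or of the gene body under peaks, were computed in Python 3.11.15 (numpy 2.4.6, pandas 2.3.3, matplotlib 3.10.9). Peaks overlapped a window by at least 1 bp. Log2 fold was centred on each library's median. WT and KO were compared over all genes with limma 3.58.1 in R 4.3.3, on genes with a peak in all 6 libraries for fold or a mean coverage of at least 1%, with Benjamini-Hochberg adjustment at 0.05. The fits were tested on simulated data. CpG islands were found in GRCm38 with a score of 17 per CpG and −1 per other base, kept where longer than 200 bp with 50% GC or more and a ratio of observed to expected CpG above 0.6. The 7 genes, the marker lists and the enzyme lists were chosen with earlier results of these data known. The B cell marker list is not reported here. All 7 were named, and a gene of another list only where it had the highest or lowest value or where a limit of its test is given. The 3 genes most like Kdm2a were those with the smallest mean absolute difference in coverage over 12 libraries. Promoters of 5 of the 7 genes were matched by symbol in RefSeq. Alternatives were window size, peak selection, scaling, filter, replicate block, female libraries only and leaving out each library.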

Additional observations from a re-analysis of the deposited data

Results flagged for a closer look

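At 2 results both female KO libraries lay on one side of both female WT libraries and the male pair moved the opposite way. The difference was not tested, since each genotype had 1 male library. Results where only the female mean was opposed, with overlapping female libraries, were not counted. The centred log2 KDM2A fold at the TSS of Kdm2a was higher in KO than in WT by 0.029 in the male pair, while both female KO libraries lay below both female WT libraries, with a difference of −0.17. H3K36me2 coverage of the Kdm4b TSS windows was 0.86 percentage points higher in KO in the male pair and −10.21 percentage points in the female libraries. KO replicate 1, the male, was also the KO list with the largest H3K36me2 extent (3.63% of the genome), and the part of sex or of that extent in this pattern cannot be told apart.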

How the results depend on the processing

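No gene of the 7 was called under any alternative run, where each could be fitted. Over all genes, 0 were called in the 4 comparisons except that H3K36me2 body coverage on a log2(percent + 1) scale gave 29 genes, all lower in KO, and H3K36me2 coverage of TSS windows with only the stronger peaks gave 6, all lower; the cause was not tested. With only the stronger peaks, 2 of the 7 genes in place of 4 had a KDM2A peak at a TSS in all 6 libraries. Of 181 values of single genes under other settings, 170 kept their direction and 11 turned. Those of H3K36me2 TSS coverage at Kdm2a, Kdm4d and Kdm8 could not turn, because no KO library had any. KDM2A fold at Kdm4b became −0.036 in female libraries. KDM2A coverage scaled to the genome share of each list became 7.07 at Kdm2b, 0.76 at Kdm4b and 4.20 at Kdm8 (ratio units). With only the stronger peaks it became −1.85 at Kdm4c and 0.15 at Kdm4d, and at Kdm8 it was 1.66 with equal numbers of peaks and 2.49 in female libraries. H3K36me2 body coverage at Kdm8 was 0.26 with equal numbers of peaks. H3K36me2 TSS coverage was 1.51 at Kdm4b with 1 kb windows and 0.48 at Kdm4c when scaled. At Kdm8 the H3K36me2 TSS difference was negative in every setting that could be fitted, which the absence of such peaks in KO fixed in advance. With equal numbers of peaks or only the stronger peaks its mean coverage fell below the filter. Scaling moved the ratio of KO to WT medians of KDM2A coverage over all genes from −0.56 to 0.19 on the log2 scale, and that of H3K36me2 body coverage from −1.52 to −0.62.

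Leaving out 1 library at a time turned 6 of 137 values. Ranges were −8.73 to 0.91 percentage points for KDM2A coverage at Kdm4d and −8.76 to 0.495 at Kdm8, −0.076 to 0.44 for H3K36me2 body coverage at Kdm4c and −0.86 to 2.08 at Kdm4d, and −1.67 to 3.94 for H3K36me2 TSS coverage at Kdm4a and −2.17 to 0.34 at Kdm4c. Without a change of sign, KDM2A coverage ranged from −7.18 (without KO replicate 3) to −2.47 (without KO replicate 2) at Kdm2a, from −13.07 (without KO replicate 3) to −4.85 (without WT replicate 1) at Kdm2b, from −17.32 (without WT replicate 3) to −8.31 at Kdm4a and from −9.68 to −5.58 at Kdm4b. Centred log2 KDM2A fold ranged from 0.01 to 0.16 at Kdm4b, from 0.03 to 0.10 at Kdm2b, from −0.20 to −0.05 at Kdm4c and from −0.14 to −0.07 at Kdm2a. H3K36me2 body coverage ranged from −8.72 to −6.77 at Kdm2b, from −6.52 to −4.14 at Kdm4b and from −5.08 to −2.25 (without KO replicate 2) at Kdm8. H3K36me2 TSS coverage ranged from −12.03 (without WT replicate 2) to −2.83 (without WT replicate 1) at Kdm4d and from −31.65 to −22.79 at Kdm8. Neither gene had such coverage in KO, so these signs were fixed in advance. Same-numbered libraries did not deviate together (correlations of deviations −0.07 to 0.06). With 3 libraries per genotype this cannot settle whether the numbers pair the samples, and replicate 1 was male in both genotypes. A fit with the replicate block called 0 genes in each of the 4 comparisons.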
